A study of Papio anubis with 18 samples.

Results

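The gene described here is ENSPANG00000035342, 1 of 29475 Ensembl gene identifiers counted by RNA-seq in pluripotent stem cells of the olive baboon, Papio anubis. It was chosen from its measured values, because it was abundant in both lines of induced pluripotent stem cells (iPSC) and scarce in both lines of embryonic stem cells (ESC). The difference between the cell types is therefore given below as a description, without a test. The iPSC lines are called 160-2 and M14939#3 and the ESC lines B4 and B15. Feeder cells and a medium made for human pluripotent cells were used for all of them, and the labels name no further treatment. Each line gave 3 libraries of total RNA, made with the SMART-Seq v4 low-input chemistry and Nextera XT. The labels refer to earlier work for the derivation of the lines, and they do not say here whether a line is a single clone, which cells were reprogrammed, or whether libraries of a line came from separate cultures. P-values therefore measure the spread between these libraries, which may be partly technical.

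ESC are derived from embryos, and iPSC are somatic cells returned to a pluripotent state by reprogramming. Both kinds of cell divide without limit in culture and can form tissues of all germ layers. The files do not pair the identifier with a symbol, a position or a protein, so what the gene does is not stated here. For the same reason marker genes of pluripotent cells and of feeder cells were not examined. Whether reads of a near-identical copy or of an overlapping gene were counted in this row was not tested.

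Total counts ranged from 12049925 to 62634176 per library. Of the 12 libraries, 6 were run on 1 lane and 6 on 2 lanes. TMM factors, which correct for differences in RNA composition, were 0.949 to 1.08 apart from 0.779 in ESC B15 replicate 2. Intervals around counts are Poisson intervals and hold only the error of counting. PCR copies were not marked by molecular identifiers, so copies of a molecule count separately and the intervals may be too narrow.

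In iPSC the gene was an abundant transcript. The libraries of 160-2 held 385, 556 and 455 CPM in replicates 1, 2 and 3 (CPM is the count scaled to a common library total). Those of M14939#3 held 774, 493 and 632 CPM. The lowest iPSC library was 160-2 replicate 1 and the highest was M14939#3 replicate 1, and the 2 lines overlapped, since M14939#3 replicate 2 lay below 160-2 replicate 2. The values rest on 12093 to 22932 counts per library, so that counting error is small beside the spread between libraries: the 95% Poisson interval of the lowest library was 379 to 391 CPM. The line means were 465 ± 86 CPM for 160-2 and 633 ± 140 CPM for M14939#3 (SD over 3 libraries).

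In ESC the same row was detected in every library at a low level. Whether these counts came from RNA of the ESC themselves was not tested. The B4 libraries held 5.14, 3.57 and 4.40 CPM in replicates 1 to 3, and the B15 libraries 4.10, 3.25 and 5.35 CPM. The ESC lines overlapped throughout, with means of 4.37 ± 0.79 CPM for B4 and 4.23 ± 1.06 CPM for B15 (SD over 3 libraries). These levels rest on 43 to 257 counts per library and 792 in all. The Poisson interval of ESC B15 replicate 2, the lowest library, was 2.52 to 4.13 CPM, and that of ESC B15 replicate 3, the highest, was 4.47 to 6.36 CPM. With TMM scaling ESC B4 replicate 2 was the lowest, at 3.76 CPM, and ESC B15 replicate 2 stood at 4.17 CPM.

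**Figure D1:**
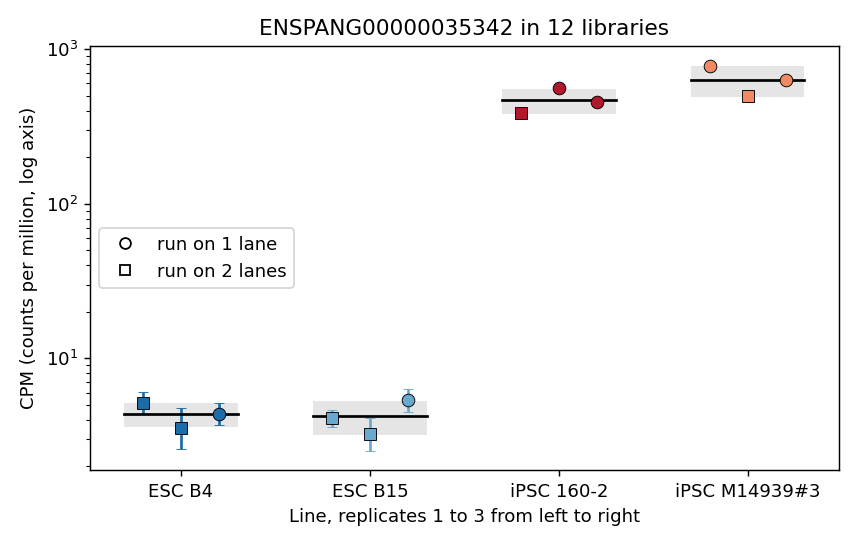
CPM of ENSPANG00000035342 on a log axis in the 3 libraries of each line, with 95% Poisson intervals (smaller than the symbols in iPSC), the line mean as a bar and ± 1 SD in grey. The 6 iPSC libraries lie between 385 and 774 CPM and the 6 ESC libraries between 3.25 and 5.35 CPM.

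The order of the lines was M14939#3, 160-2, B4 and B15. B4 and B15 changed places with TMM-scaled CPM, at 4.34 and 4.44. The libraries of the first 2 overlapped, as did those of the last 2, and neither pair passed the tests given below. The step from the iPSC to the ESC lines was much larger: the ratio of line means was 107 for 160-2 to B4 and 110 for 160-2 to B15, and 145 and 149 for M14939#3 to the same lines. The lowest iPSC library was 72.0 times the highest ESC library. In the fit of all 12 libraries the log2 difference between the means of the iPSC and ESC lines was 6.77 (SE 0.18), the contrast in which the gene was found. In that contrast 1.02% of the 17106 rows tested were called in either direction (175 rows, with 89 without ESC B4 replicate 3 and 354 without ESC B15 replicate 1). These counts take the spread between libraries as the error. With counts summed per line, so that the line was the unit, 6 of 19685 rows were called. In bulk RNA, fewer cells that express a gene and less RNA per cell cannot be told apart.

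CPM are not scaled to gene length, which is not known here, so a rank by CPM orders rows by their share of reads and not by molecules. By mean CPM the gene was number 335 of 29475 in iPSC, among the first 1.14%. It was number 417 in 160-2 and 282 in M14939#3, with single libraries from 215 to 536. In ESC it was number 9681, with 9659 in B4 and 9640 in B15 and single libraries from 9027 to 9971.

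The 4 rows nearest to the gene in the iPSC ranking had a similar mean CPM in ESC. The rows just above the gene in the iPSC ranking were ENSPANG00000033834, at 552 ± 283 CPM in iPSC and 499 ± 194 CPM in ESC, and ENSPANG00000021963, at 550 ± 71 and 616 ± 98 CPM (SD, n = 6 each). The rows just below were ENSPANG00000025185, at 548 ± 104 and 555 ± 135 CPM, and ENSPANG00000004701, at 548 ± 129 and 540 ± 89 CPM (SD, n = 6 each). All 4 had a rank of 305 to 398 in ESC. At the gene's place in the ESC ranking stood ENSPANG00000021309, with 4.30 CPM in ESC and 4.49 CPM in iPSC, and ENSPANG00000035179, with 4.30 and 5.28 CPM. The gene thus had the neighbours of an abundant row in iPSC and of a scarce row in ESC.

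**Figure D2:**
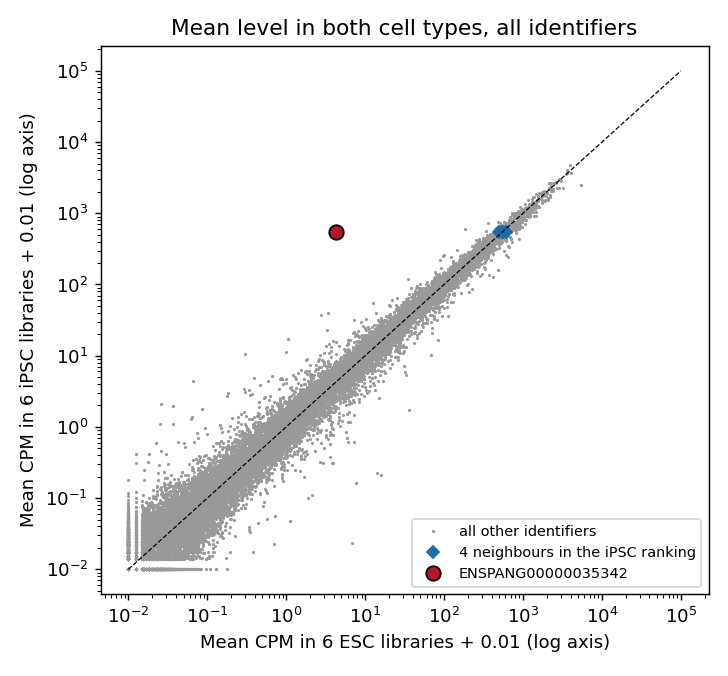
Mean CPM in the 6 iPSC libraries against mean CPM in the 6 ESC libraries for all 29475 identifiers, both on log axes after adding 0.01, with the dashed line marking equal levels. ENSPANG00000035342 (red) lies far above the cloud at 549 CPM in iPSC and 4.30 CPM in ESC, while its 4 neighbours in the iPSC ranking (blue) lie near the line.

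By this description the gene had no counterpart in the table. Of the first 1000 rows in iPSC, 3 had a rank over 2000 in ESC: the gene, ENSPANG00000030767 at rank 2203 and ENSPANG00000023827 at rank 2132, the last 2 chosen after their values were seen. The former had 251 CPM in iPSC and 96.5 CPM in ESC, and the latter 256 and 101 CPM (means of 6 libraries). Single libraries of ENSPANG00000030767 held 177 to 347 CPM in iPSC and 28.5 to 158 CPM in ESC. Those of ENSPANG00000023827 held 76.8 to 602 CPM and 48.8 to 135 CPM, so that its levels in the cell types overlapped. Of the first 1000 rows in ESC, 0 had a rank over 2000 in iPSC, the highest rank number being 1823. At least 100 CPM in each iPSC library was reached by 1647 rows, of which the gene was the only one under 10 CPM in each ESC library. In the other direction, 0 of 1557 rows with at least 100 CPM in each ESC library were under 10 CPM in each iPSC library. Among the 1647 rows the next largest ratio of the lowest iPSC to the highest ESC library was 1.12, that of ENSPANG00000030767, against 72.0 for the gene. These counts use the pattern for which the gene was chosen.

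The low ESC level was compared between lanes, because 4 ESC and 2 iPSC libraries were run on lanes 7 and 8 while the other 6 libraries carry lane 7 only. ESC B4 replicate 1 held 5.40 CPM on lane 7 and 4.89 CPM on lane 8, and ESC B4 replicate 2 held 3.35 and 3.78 CPM. ESC B15 replicate 1 held 4.06 and 4.14 CPM, and ESC B15 replicate 2 held 3.75 and 2.77 CPM. No library passed an exact two-sided binomial test of its 2 lane counts against the lane totals, with p from 0.118 to 0.901 over 6 libraries (adjusted 0.672 to 0.901). iPSC 160-2 replicate 1 held 387 and 384 CPM and iPSC M14939#3 replicate 2 held 486 and 500 CPM. Pooled over all libraries with lane 7 in their names, the gene stood at 308 CPM, and over those with lane 8 at 148 CPM. The 4 ESC libraries run on both held 4.25 CPM on lane 7 and 4.05 CPM on lane 8. Their ratio of lane 7 to lane 8 was 1.05 (95% counting interval 0.879 to 1.25). Whether libraries that share a lane number were run in the same flow cell is not given in the labels.

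**Figure D3:**
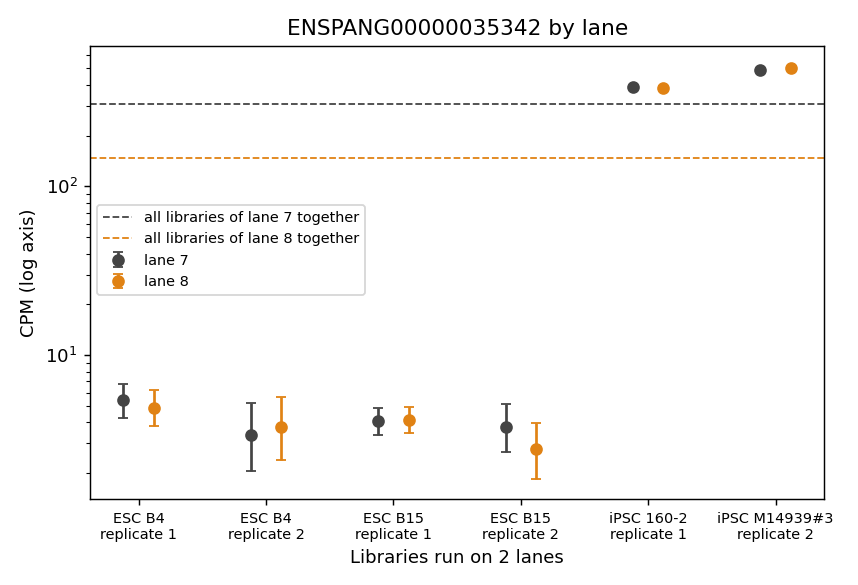
CPM of ENSPANG00000035342 on a log axis in the 6 libraries run on 2 lanes, by lane, with 95% Poisson intervals. Dashed lines give the pooled level of all libraries with that lane number, 308 CPM for lane 7 and 148 CPM for lane 8, while the ESC libraries lie between 2.77 and 5.40 CPM on either lane.

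Among 3524 rows with a mean of at least 50 CPM over the 12 libraries, the lowest library stood at a median of 64.3% of the row's mean. For the gene it stood at 1.17% (3.25 CPM against a mean of 277 CPM). In 4 rows, named after their values were seen, the lowest library lay at a smaller share of the mean. For ENSPANG00000025667, ENSPANG00000013195 and ENSPANG00000022880 this was iPSC 160-2 replicate 3, at 0.43%, 0.72% and 1.06% of the mean. For ENSPANG00000008547 it was iPSC M14939#3 replicate 3, at 0.47%. ENSPANG00000025667 was also scarce in an ESC library, at 0.59 CPM. ENSPANG00000022880 also shows the spread within a line, from 7.10 CPM in that library to a mean of 123 CPM in the line.

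The 2 iPSC lines were compared on the gene. Their difference was not the contrast it was chosen on, but the level in each line entered the choice. It had to be abundant in both iPSC lines and scarce in both ESC lines. Comparisons of lines within a cell type are thus not independent of the choice. M14939#3 minus 160-2 was 0.37 on the log2 scale (SE 0.19, 95% interval -0.05 to 0.78), which did not pass the quasi-likelihood test of edgeR (Benjamini-Hochberg adjusted p = 0.239, unadjusted p = 0.0785). Between these lines 8.84% of the rows tested (1513) were called, a number that ranged from 317 without iPSC 160-2 replicate 2 to 2471 without ESC B15 replicate 1 and was 2555 by DESeq2. An exact two-sided permutation test on mean log2 CPM gave p = 0.2, and 0.1 is the smallest p that 3 libraries against 3 allow. The upper end of the interval is a 1.72-fold difference. Within the libraries run on 1 lane, 2 per iPSC line, the difference was 0.40 (edgeR adjusted p = 0.219). Only 1 library of each iPSC line was run on 2 lanes, and the difference between these was 0.34, a value without replicates of its own.

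The 2 ESC lines had nearly equal levels. B15 minus B4 was 0.01 on the log2 scale (SE 0.21, 95% interval -0.44 to 0.46, edgeR adjusted p = 0.993), where 0.368% of the rows tested (63) were called, with 26 without ESC B4 replicate 3, 196 without ESC B15 replicate 1 and 240 by DESeq2. The exact permutation test gave p = 0.9. It was -0.14 within the libraries run on 2 lanes (2 per ESC line), and 0.24 between the single 1-lane libraries of the lines, a value without replicates. It was also negative without ESC B15 replicate 2 (-0.02), ESC B15 replicate 3 (-0.02), ESC B4 replicate 2 (-0.03) or ESC B4 replicate 3 (-0.15).

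Each sample description has the letter p followed by a number, called the p number here, which the labels do not define. In 160-2 the gene stood at 385 CPM at p number 25, 556 CPM at 65 and 455 CPM at 84. In M14939#3 it stood at 774 CPM at 16, 493 CPM at 17 and 632 CPM at 40. Neither iPSC line thus rose or fell steadily, and libraries 1 unit apart in M14939#3 differed 1.57-fold. In B4 the values were 5.14, 3.57 and 4.40 CPM at 16, 18 and 25, and in B15 they were 4.10, 3.25 and 5.35 CPM at 21, 28 and 43. With TMM scaling the B15 values were 3.92, 4.17 and 5.23 CPM, in the order of the p number.

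**Figure D4:**
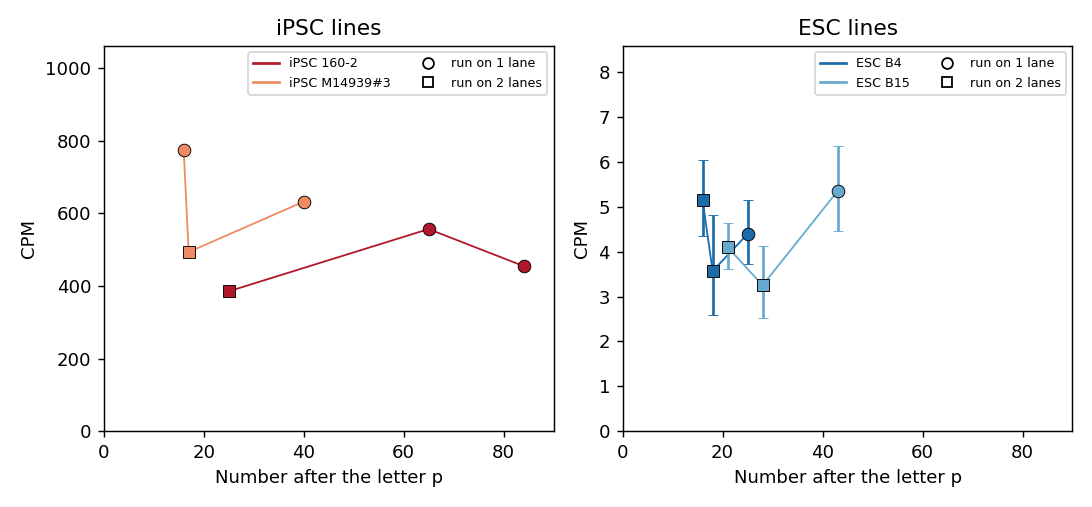
CPM of ENSPANG00000035342 against the p number of the sample descriptions, iPSC lines left and ESC lines right on separate linear axes, with 95% Poisson intervals and symbols for the library set. In B4 and M14939#3 the middle number has the lowest value and in 160-2 the highest, while B15 is lowest at its middle number in plain CPM but not in TMM-scaled CPM.

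Over the 4 lines the slope was 0.17 log2 units per doubling of the p number (SE 0.15, 95% interval -0.16 to 0.50), which did not pass the edgeR test (adjusted p = 0.658). For this slope 0.520% of rows (89) were called, with 0 without ESC B15 replicate 3, iPSC 160-2 replicate 1 or iPSC 160-2 replicate 3, 554 without iPSC M14939#3 replicate 1, and 846 by DESeq2. A term for the library set also gave 0. The exact permutation test within lines gave p = 0.316. With a slope for each cell type, it was 0.15 in iPSC (SE 0.18, edgeR adjusted p = 0.830) and 0.26 in ESC (SE 0.34, edgeR adjusted p = 0.833). In the iPSC slopes 0% of rows were called by edgeR, with 1816 rows at an unadjusted p under 0.05 and 245 called by DESeq2, and in the ESC slopes 0.737% were called. The slopes differed by -0.11 (iPSC minus ESC, SE 0.39, edgeR adjusted p = 0.981). For this difference 0% of rows were called by edgeR, with 1047 rows at an unadjusted p under 0.05 and 43 by DESeq2. With a term for the library set, the slope over 4 lines was -0.14 (SE 0.20, edgeR adjusted p = 0.9998) that in iPSC was also -0.14 (SE 0.21), and that in ESC was -0.45 (SE 0.46). With the replicate number as a block instead, the slopes were 0.67 over 4 lines (SE 0.31, edgeR adjusted p = 0.991), 0.96 in iPSC (SE 0.30, edgeR adjusted p = 0.707) and 1.88 in ESC (SE 0.60, edgeR adjusted p = 0.548). Unadjusted p under this block were 0.0554, 0.00826 and 0.00936 by edgeR. In each line the replicate numbers follow the order of the p numbers, so the block overlaps with the p number. The blocked slopes rest on what the block leaves of the p number and are no independent check. Size and sign of the slopes thus depended on these terms. The iPSC slope was -0.07 without iPSC 160-2 replicate 1.

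In the iPSC lines, each with only 1 library run on 2 lanes, the level of the gene was lowest in that library. The libraries of 160-2 run on 1 lane held 556 and 455 CPM and the one run on 2 lanes 385 CPM, and those of M14939#3 held 774 and 632 CPM against 493 CPM. In both iPSC lines each 1-lane library was thus above the 2-lane library. In ESC the pattern was mixed: the 1-lane library of B15 was the highest of its line at 5.35 CPM, while that of B4, at 4.40 CPM, lay between the 2-lane libraries at 5.14 and 3.57 CPM. Within lines, 1-lane minus 2-lane libraries was 0.37 on the log2 scale (SE 0.15, 95% interval 0.04 to 0.69), which did not pass the adjusted edgeR test (adjusted p = 0.189, unadjusted p = 0.0316). For the set 6.51% of rows (1114) were called, with 40 under the replicate block and 1836 by DESeq2. Leaving out iPSC 160-2 replicate 1 gave 457 rows, and leaving out replicate 3 of B4 or of B15 gave 518 or 552. For the gene the block raised the set difference to 0.63 (SE 0.21, edgeR adjusted p = 0.233, unadjusted p = 0.00869). The exact permutation test within lines gave p = 0.0494, or 0.247 adjusted over the 5 exact tests made on the gene. Higher p numbers lie mostly in 1-lane libraries, so the set and the p number overlap. The exception is M14939#3 replicate 1, a 1-lane library with the low number 16, which held the highest level of the 12 libraries.

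The spread of the gene within lines was moderate. The SD of log2 CPM within lines was 0.28, where the median row had 0.45, and 18.2% of rows had a smaller one. Within the iPSC lines alone it was 0.34 against a median of 0.39, with 39.5% of rows below. Lower counts raise this SD in scarce rows, so these shares describe the table and not the gene alone.

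Rows whose log2 CPM followed the gene over the 6 iPSC libraries are given as a description. The 6 points share library depth, the library set and 2 lines, and with 6 points many rows reach a high correlation. Of 17105 other rows, 65 (0.380%) had a Pearson r of at least 0.95 and 42 had -0.95 or less. The gene itself was higher in the 1-lane libraries of both iPSC lines, so rows chosen for following it share that pattern. The number of such rows was 217 with values centred on the iPSC lines. Leaving out replicate 1, 2 or 3 of iPSC 160-2 gave 101, 281 or 172 such rows, and leaving out those of iPSC M14939#3 gave 110, 245 or 158.

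Among rows with a mean of at least 10 CPM in iPSC, the closest to the gene was ENSPANG00000020171 (r = 0.99), which ranked the 6 libraries in the same order. It held 255, 324 and 276 CPM in 160-2 and 413, 295 and 363 CPM in M14939#3. Next was ENSPANG00000022551 (r = 0.99), at 635, 794 and 707 CPM in 160-2 and 957, 760 and 849 CPM in M14939#3. ENSPANG00000004188 (r = 0.99) ranged from 68.4 to 107 CPM over the iPSC libraries and ENSPANG00000018699 (r = 0.98) from 60.8 to 99.8 CPM. All 4 were lowest in 160-2 replicate 1 and highest in M14939#3 replicate 1, as was the gene.

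In mean level the rows did not share the step between the cell types. In ESC ENSPANG00000020171 held 284 to 462 CPM and ENSPANG00000022551 held 790 to 1133 CPM, levels near those in iPSC. The iPSC to ESC ratio of the 4 rows was 0.858 to 0.925, where that of the gene was 128. Over the 6 ESC libraries their r with the gene was -0.24, -0.25, -0.29 and 0.46. The gene rests on 43 to 257 counts per library there, so these r cannot show whether the rows follow it in ESC.

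The opposite course was taken by ENSPANG00000008278 (r = -0.99), at 187, 96.0 and 142 CPM in 160-2 and 78.0, 134 and 105 CPM in M14939#3. ENSPANG00000012294 (r = -0.98) ranged from 63.4 CPM in M14939#3 replicate 1 to 110 CPM in 160-2 replicate 1. Neither differed much in mean level between the cell types, with ratios of 1.05 and 1.07.

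**Figure D5:**
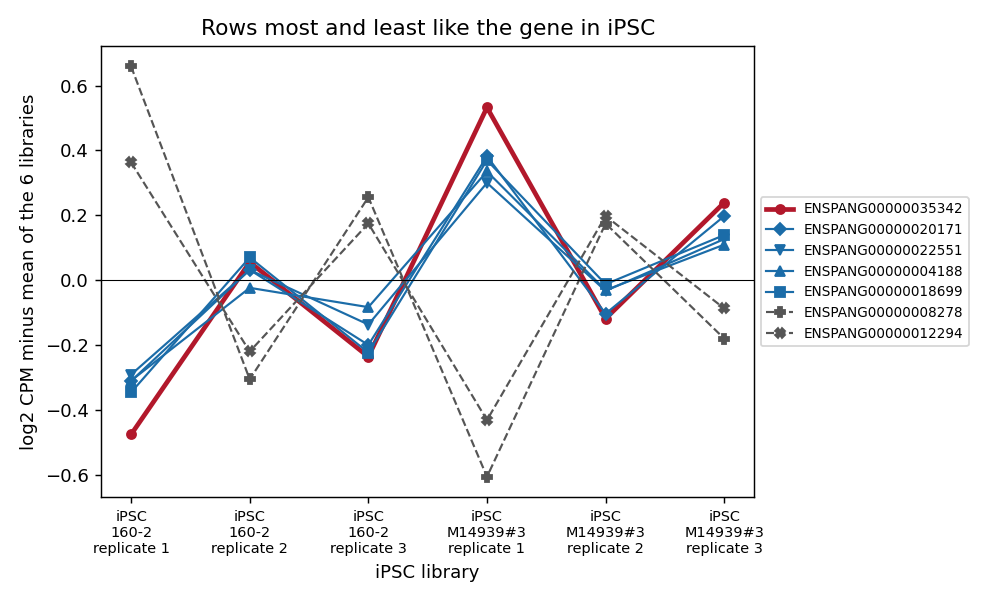
Log2 CPM (plain library totals) minus its mean over the 6 iPSC libraries for ENSPANG00000035342 (red), the 4 rows with the highest r (blue) and the 2 with the lowest r (grey, dashed). The gene and the 4 rows are lowest in 160-2 replicate 1 and highest in M14939#3 replicate 1, and the other 2 rows are highest and lowest in these libraries. The 6 rows were taken from those with a mean of at least 10 CPM in iPSC. Lines join replicates only to guide the eye.

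Over all 12 libraries the likeness is set by the step between the cell types. Among rows with a mean of at least 10 CPM in either cell type, those closest to the gene were ENSPANG00000021496 (r = 0.97), ENSPANG00000005066 (r = 0.96) and ENSPANG00000032034 (r = 0.92). ENSPANG00000021496 held 11.2 to 15.9 CPM in iPSC libraries and 2.24 to 3.81 CPM in ESC libraries. ENSPANG00000005066 held 19.8 to 29.1 CPM and 7.23 to 10.96 CPM. ENSPANG00000032034 held 43.1 to 74.2 CPM and 20.8 to 33.8 CPM. All 3 were higher in each iPSC than in each ESC library, but the ratio of means was 4.29, 2.78 and 2.51, against 128 for the gene. Within the iPSC libraries they did not follow it, with r of 0.02, -0.77 and 0.10. Of all 17105 other rows, 13 had an r of at least 0.9 over the 12 libraries. Of the 7820 rows with a mean of at least 10 CPM in either cell type, 5 did. The other 2, given after their values were seen, were ENSPANG00000036438 (r = 0.91) and ENSPANG00000000686 (r = 0.90), with iPSC to ESC ratios of 2.73 and 1.53. A row can enter these 7820 through its iPSC level alone. ENSPANG00000021496, ENSPANG00000005066 and ENSPANG00000036438 did so, with ESC means of 3.14, 9.27 and 6.08 CPM.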

How the data were processed

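RNA-seq libraries of 4 Papio anubis lines, 3 per line, were analysed. The authors deposited raw read counts for 29475 Ensembl gene identifiers in 18 columns (1 per library and lane). The tools featureCounts and edgeR appear, per the submitters' processing notes, without a role. Aligner, genome build, annotation and counting options: not given in the sources used here. Lanes of a library were summed, and CPM was taken from each library's own total.

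Tests used edgeR 4.0.16 in R 4.3.3 (TMM, filterByExpr, robust quasi-likelihood fit) on all 12 libraries, with Benjamini-Hochberg adjustment over 17106 rows and a threshold of 0.05. One fit had the line and the library set (run on 1 or on 2 lanes) as terms. Other fits had the line and the log2 p number (the number that follows the letter p in a sample description), with 1 slope or with 1 slope per cell type. Log2 differences and slopes are edgeR's, shrunken towards 0, and each SE is the unshrunken value over the square root of its F statistic, around which the 95% intervals are built. Log2 CPM values were TMM-scaled with a prior count of 2. Exact permutation tests exchanged libraries between lines, or p numbers and sets within lines. DESeq2 1.42.0 was an alternative. The code was tested on simulated data.

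The gene, the tests and the lists were chosen with earlier results of these data known. Other rows named are those with the 4 highest and 2 lowest Pearson correlations in iPSC (mean of at least 10 CPM), the 3 highest over 12 libraries (mean of at least 10 CPM in either cell type), and the neighbours in rank. Rows outside this rule are given as chosen after their values were seen. None of the 29475 identifiers could be matched to a symbol in the RefSeq table of Panubis1.0 used here, so marker genes of pluripotent, feeder and differentiated cells were not examined, and no sequence is shown. The replicate numbers of different lines were compared by their deviations from the line means. Over all lines the correlation was -0.22 to 0.44 (median 0.20) in 18 pairs with the same number and above 0.1 in 11 of them, beside a median of -0.08 and 9 of 36 for other numbers, so the numbers were not taken as pairs of all 4 lines. Between B15 and B4 all 3 pairs were above 0.1 (0.26, 0.41 and 0.44). Replicates 1 and 2 of both these lines were run on 2 lanes and replicate 3 on 1. In each line the replicate numbers also follow the order of the p numbers, so same-numbered libraries share that order. The main fits and the exact tests did not use the numbers as pairs. A replicate block over all 4 lines at once was an alternative, and no fit paired the ESC lines alone.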

Additional observations from a re-analysis of the deposited data

Results flagged for a closer look

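In 20 groups of 6 libraries (the gene and the 9 rows most or least like it, in each cell type), 1 library stood apart from the others of its cell type by Dixon's gap test, and chance gives about 1 in 20. It was ESC B15 replicate 3 for ENSPANG00000032034, at 33.8 CPM where the other ESC libraries held 20.8 to 25.4 CPM. No library stood apart in this way for ENSPANG00000035342.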

How the results depend on the processing

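The log2 difference between the cell types was 6.66 to 6.85 with single libraries left out and 6.64 to 6.95 under the other settings, including 6.95 with counts summed per line. The mean levels per line and the ranks moved by less than the spread between libraries under each setting tried, with a rank of 311 to 368 in iPSC and 9590 to 9794 in ESC with single libraries left out. The other tests on the gene passed the threshold under 0 of their alternatives (19 for each pair of lines, 16 for the library set and 18 for each slope), where adjusted p ranged from 0.147 to 1 by edgeR or DESeq2. With single libraries left out, the difference between the iPSC lines was 0.25 to 0.50, that between the ESC lines -0.15 to 0.19, and that of the library sets 0.29 to 0.47. The slope was 0.05 to 0.27 over 4 lines, -0.067 to 0.27 in iPSC and -0.084 to 0.42 in ESC, and the slopes differed by -0.33 to 0.22. Signs also changed for the ESC lines without a filter on low counts (-0.0041) and within the libraries run on 2 lanes (-0.14), and with a term for the library set for the slopes (-0.14 over 4 lines, -0.14 in iPSC, -0.45 in ESC, 0.31 for their difference); the cause was not tested.

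The main tests did not use the replicate numbers as pairs, and no fit paired the ESC lines alone. A replicate block over all 4 lines left the call between the ESC lines as it was (edgeR adjusted p = 0.986). Under this block the iPSC lines differed by 0.37, the ESC lines by 0.01, the sets by 0.63 and the cell types by 6.68. The slopes were 0.67 over 4 lines, 0.96 in iPSC and 1.88 in ESC, where the block overlaps with the p number. No adjusted p was under 0.05 among the tests outside the contrast the gene was chosen on. The number of rows that follow the gene in iPSC, 65, was 217 with values centred on the iPSC lines and 101 to 281 with 1 of the 6 libraries left out, where fewer points let more rows reach the threshold. Numbers of rows called in the whole table moved more than the gene's values: without a filter on low counts they were 2339 for the iPSC lines, 391 for the ESC lines, 617 for the cell types, 1811 for the sets and 324 for the slope over 4 lines, where the fits with the filter called 1513, 63, 175, 1114 and 89, and DESeq2 called 2555, 240, 426, 1836 and 846. Depth limits the ESC values, which rest on 43 to 257 counts per library.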
